A study of Homo sapiens with 4 samples.

Results

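The genes described here are 10 growth factor responsive genes, chosen by symbol: the transcription factor genes EGR1, FOS, JUN, JUNB, NR4A1, KLF4, KLF6 and MYC and the phosphatase genes DUSP1 and DUSP6. Each had 1 probe set, so all 10 were read among 17687 named genes. They were read in 22Rv1, a human castration-resistant prostate cancer cell line that carries the androgen receptor, on 4 whole-transcript arrays. Cells were kept for 3 days in medium with 2.5% steroid-depleted serum and transfected with siRNA, either a control (siControl) or one directed at the transcription factor OCT1 (siOCT1). From 48 h after transfection they received ethanol vehicle or 10 nM of the androgen dihydrotestosterone (DHT) for 24 h. The 4 groups were thus siControl with vehicle, siControl with DHT, siOCT1 with vehicle and siOCT1 with DHT, each with 1 array of 1 culture of 1 line. With 1 array a group no difference has a replicate check and no p-value is given, and the level of OCT1 itself was not analysed here, so its depletion was not checked.

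Immediate early genes are transcribed within minutes of a growth factor signal without new protein synthesis. The signal runs from a receptor tyrosine kinase through RAS, RAF and MEK to the kinase ERK, a mitogen-activated protein kinase (MAPK), which activates ETS factors such as ELK1 that sit with serum response factor (SRF) on the CArG boxes of target promoters. Among the induced genes are transcription factors that carry the response forward and phosphatases and Sprouty proteins that dampen the pathway, so that feedback genes such as DUSP6 are widely read as a gauge of ERK activity. MYC, an amplifier of growth and ribosome production, is a further growth factor target and is often raised in prostate cancer. The early peak of such a response is over long before 24 h, so these arrays hold sustained levels.

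Values are log2 signals on the scale the authors deposited, and a difference is a log2 value. Each array's 612 negative control probe sets gave its background, their 95th percentile. It was 6.62 with siControl and vehicle, 6.99 with siControl and DHT, 7.39 with siOCT1 and vehicle and 6.91 with siOCT1 and DHT. A pair with its dimmer value under background has only a lower bound, written "at least N-fold", which sets the brighter value against the dimmer array's background. No fold is given where the brighter value was under background too. Measured genes are the 8843 whose brightest array read over 6.51, the midpoint (median) of all genes' brightest readings. Between 327 and 379 values per array exceeded 16, the ceiling in log2 for 16-bit scanning, so folds hold on the deposited scale only. Of 8 luminal prostate epithelial markers 6 had a value, and KRT8, KRT18, EPCAM, CDH1 and HOXB13 lay above background on every array. Both basal keratins with a value, KRT5 and KRT14, and all 3 immune and 3 endothelial markers lay below background on every array. Of the 3 stromal markers with a value, COL1A1 and DCN did so too. Of 3 neuroendocrine markers CHGA and ENO2 lay below background throughout and SYP above it.

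Promoter windows show where set forms of some known signal-responsive sequence elements lie near these genes. RefSeq windows on build GRCh38.p14 were found for 9 of the 10 members, with 2 start sites for NR4A1; MYC was not among them. The 250 bases before each start were searched on both strands. Shown are EGR1 and NR4A1, which were lower with siOCT1 in both ligand states, DUSP6, which lay above background on the siControl arrays only, KLF4, which was higher with DHT under both siRNAs, and DUSP1, the other phosphatase. Capitals mark CArG boxes and TGACG, the core of a cAMP response element (CRE), on either strand.
EGR1, chr5:138465229-138465478, plus strand: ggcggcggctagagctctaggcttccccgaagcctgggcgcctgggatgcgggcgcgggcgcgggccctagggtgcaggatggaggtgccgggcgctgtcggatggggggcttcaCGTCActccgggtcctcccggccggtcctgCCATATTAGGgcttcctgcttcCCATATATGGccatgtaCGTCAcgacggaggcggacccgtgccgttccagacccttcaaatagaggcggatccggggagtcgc
NR4A1 first start, chr12:52022582-52022831, plus strand: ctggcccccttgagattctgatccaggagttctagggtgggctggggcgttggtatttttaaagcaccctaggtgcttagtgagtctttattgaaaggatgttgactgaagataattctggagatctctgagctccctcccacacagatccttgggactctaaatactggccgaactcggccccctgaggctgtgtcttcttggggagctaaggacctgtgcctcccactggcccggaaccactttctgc
NR4A1 second start, chr12:52037465-52037714, plus strand: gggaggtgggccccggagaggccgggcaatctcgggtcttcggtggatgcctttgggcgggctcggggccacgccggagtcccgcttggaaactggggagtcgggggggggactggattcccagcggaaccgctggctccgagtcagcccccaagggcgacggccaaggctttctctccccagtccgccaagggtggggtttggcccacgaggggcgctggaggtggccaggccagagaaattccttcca
DUSP6, chr12:89352502-89352751, minus strand: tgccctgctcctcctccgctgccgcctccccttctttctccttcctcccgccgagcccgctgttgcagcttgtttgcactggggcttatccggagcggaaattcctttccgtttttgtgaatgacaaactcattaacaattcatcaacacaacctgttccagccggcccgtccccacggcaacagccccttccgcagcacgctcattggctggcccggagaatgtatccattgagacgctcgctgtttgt
KLF4, chr9:107489770-107490019, minus strand: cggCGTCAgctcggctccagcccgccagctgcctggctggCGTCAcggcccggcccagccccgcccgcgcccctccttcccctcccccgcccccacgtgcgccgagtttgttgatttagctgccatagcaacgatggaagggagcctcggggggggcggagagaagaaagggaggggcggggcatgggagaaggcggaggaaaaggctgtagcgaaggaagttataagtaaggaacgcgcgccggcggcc
DUSP1, chr5:172771196-172771445, minus strand: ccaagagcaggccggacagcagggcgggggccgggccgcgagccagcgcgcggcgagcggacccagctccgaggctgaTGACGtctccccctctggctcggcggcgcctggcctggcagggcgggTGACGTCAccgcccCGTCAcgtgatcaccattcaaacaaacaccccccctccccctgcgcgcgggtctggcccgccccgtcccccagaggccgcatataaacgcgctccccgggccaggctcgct
EGR1 alone of the 9 held a CArG box, with 2 of them, at -105 to -96 and -83 to -74 from the start, against 1.16% of all 35116 windows with at least 1. TGACG was found in EGR1, DUSP1, FOS, JUN, JUNB and KLF4, 6 of 9 members, against 21.2% of all windows. The full palindrome TGACGTCA, which contains TGACG on each strand, was found in DUSP1 only, at -125 to -118, against 1.65% of all windows. The GC box GGGCGG was found in 6 members and in 42.6% of all windows. No member window held the exact octamer ATGCAAAT that OCT1 binds (1.63% of all windows), TGANTCA, 1 form of an AP-1 site (6.57%), CCGGAAG, 1 form of an ETS site (8.52%), or TGTTCT, a hexamer of the androgen response element (12.4%). Variant forms of these sites were not searched, so their absence is not shown. A match is a description of letters, and these windows leave out distal elements and any site just beyond the 250 bases.

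Of the 10 members, 4 lay above background on all 4 arrays: EGR1, KLF6, MYC and DUSP1. NR4A1 did so on 3 arrays, and KLF4 and DUSP6 on 2. FOS, JUN and JUNB, which are among the subunits of AP-1 dimers, lay below background on every array. FOS ranged from 3.43 to 4.32, JUN from 5.09 to 6.36 and JUNB from 5.22 to 6.56. No fold is given for these 3 genes in any pair, and their order between arrays has no reading. JUNB still passed the measured level through its siOCT1 vehicle value, so 8 members counted as measured, and JUNB enters the counts below although it was dim throughout.

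**Figure D1:**
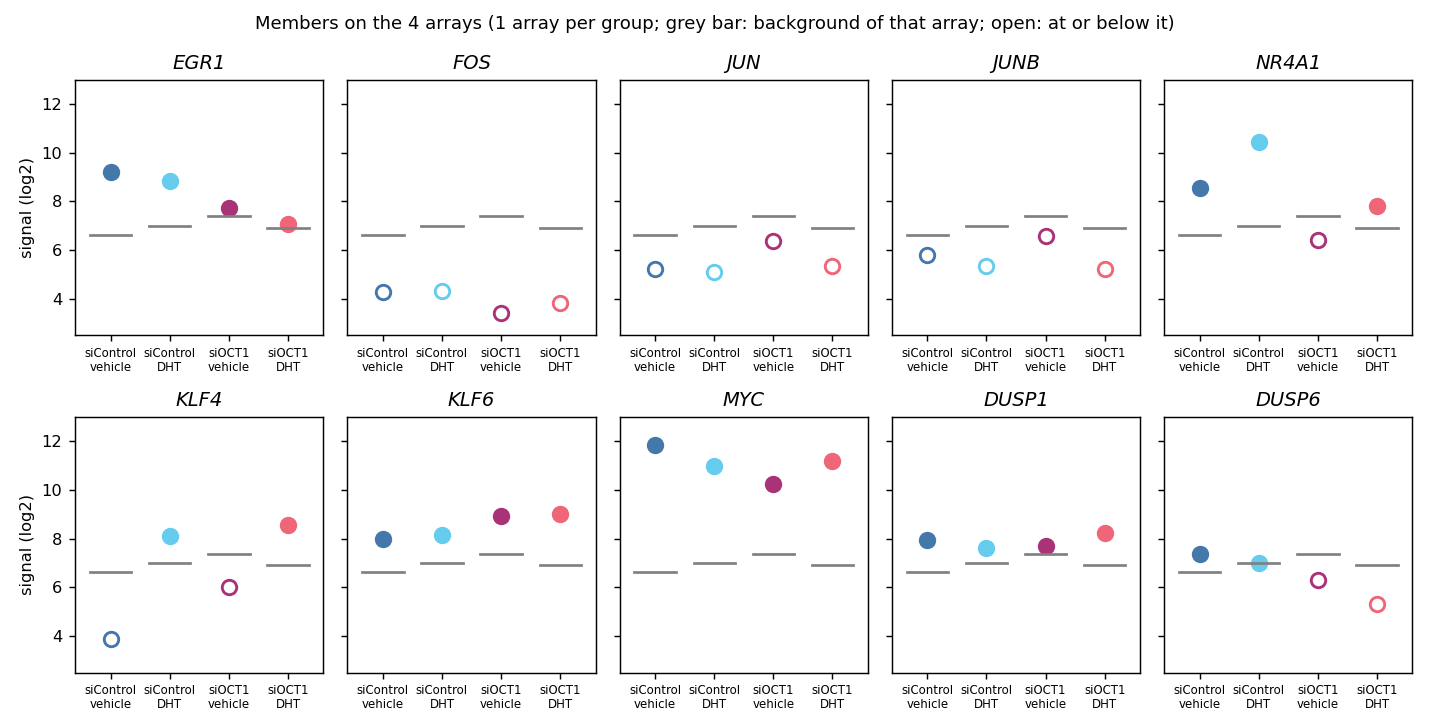
Log2 signal of each member (vertical axis) on the 4 arrays (horizontal axis), 1 point per array, filled where above that array's background (grey bar) and open where not. EGR1 and NR4A1 are higher on the siControl arrays, KLF6 on the siOCT1 arrays and KLF4 on the DHT arrays, MYC is highest with siControl and vehicle, and FOS, JUN and JUNB are open throughout.

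EGR1 and NR4A1 were lower in siOCT1 cells with either ligand, and KLF6 was higher. EGR1, a zinc finger factor that is a classical readout of ERK signalling, read 9.22 with siControl and vehicle, 8.83 with siControl and DHT, 7.73 with siOCT1 and vehicle and 7.08 with siOCT1 and DHT. Both siControl values lay above both siOCT1 values, which stood close over their backgrounds. How many measured genes separate in this way, by siRNA or by ligand, was not counted. The 2 values of an siRNA differ in ligand and are not replicates. The EGR1 difference was -1.49 in vehicle and -1.76 in DHT, 2.81-fold and 3.38-fold lower. Of all measured genes 9.10% had a lower difference in vehicle and 4.52% in DHT.

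NR4A1, an orphan nuclear receptor also known as Nur77, read 8.55 with siControl and vehicle and 10.44 with siControl and DHT. With siOCT1 it read 6.43 in vehicle, below background, and 7.81 in DHT. Here too both siControl values lay above both siOCT1 values. NR4A1 was at least 2.23-fold lower with siOCT1 in vehicle, and in DHT the difference was -2.63, or 6.21-fold lower, which 1.24% of measured genes exceeded on the lower side.

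KLF6, a Krüppel-like zinc finger factor described as a tumour suppressor in prostate cancer, read 8.01 and 8.14 with siControl and 8.95 and 9.0 with siOCT1, vehicle and DHT in turn. Both siOCT1 values lay above both siControl values, and the ligand made little difference under either siRNA. KLF6 was higher by 0.95 in vehicle and by 0.86 in DHT, 1.93-fold and 1.81-fold. These are modest differences, and 12.9% and 11.2% of measured genes had higher ones.

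DUSP6, the cytoplasmic phosphatase that removes the activating phosphates of ERK, read 7.39 and 7.01 with siControl, against backgrounds of 6.62 and 6.99, and 6.29 and 5.30 with siOCT1, both below it. All 4 values lay near or under background. In DHT it was at least 1.07-fold lower with siOCT1, and in vehicle the background of the siOCT1 array allows no bound above 1. DUSP1, a nuclear phosphatase of ERK, JNK and p38, read 7.93 and 7.64 with siControl and 7.68 and 8.23 with siOCT1. The 2 siRNAs overlapped. The DUSP1 difference was -0.25 in vehicle and 0.59 in DHT, the latter 1.5-fold and the member value nearest to the 1.5-fold limit.

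KLF4, a Krüppel-like factor of epithelial differentiation, lay below background in vehicle under both siRNAs, at 3.86 and 6.02. In DHT it read 8.13 with siControl and 8.58 with siOCT1, a difference of 0.45, so no siOCT1 difference past 1.5-fold was seen where the gene was bright enough to read.

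MYC differed between the siRNAs in vehicle and hardly in DHT. It read 11.87 with siControl and vehicle, 10.98 with siControl and DHT, 10.27 with siOCT1 and vehicle and 11.18 with siOCT1 and DHT, far above background on all arrays. The 2 vehicle arrays held the highest and the lowest value, and the 2 DHT arrays lay between them. The siOCT1 difference was -1.60 in vehicle, 3.03-fold lower, and 0.20 in DHT.

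In vehicle 3 of the 8 measured members were higher with siOCT1 by at least 1.5-fold (JUNB, KLF4 and KLF6) and 4 lower (EGR1, NR4A1, MYC and DUSP6), where 22.9% of measured genes were higher and 28.7% lower. Of these members JUNB and KLF4 lay below background on both arrays, so of the 3 higher members KLF6 alone has a reading, and JUNB counted as measured only through the array on which it is higher here. DUSP6 has no bound above 1 in this pair, and it counted as measured only through the siControl arrays, on which it is higher. In DHT 2 were higher (KLF6 and DUSP1) and 3 lower (EGR1, NR4A1 and DUSP6), against 18.9% and 26.0% of measured genes. The same direction in both ligand states was found for 1 higher member (KLF6) and 3 lower ones (EGR1, NR4A1 and, by deposited values only, DUSP6), against 12.2% and 18.7%. The ligand states share no array, and with 8 measured members these shares describe a small set. Of the negative control probe sets 56.0% passed 1.5-fold in vehicle and 56.9% in DHT, so passing it near background says little. The median over measured members was -0.67 in vehicle and 0.03 in DHT, and over all measured genes -0.06 and -0.07, with single members from -2.63 to 0.86 in DHT. With every value below the highest of the 4 backgrounds set to it, the members' median in vehicle was -0.12. Over all measured genes 2024 were higher and 2541 lower in vehicle, which became 2774 and 1937 when positive controls were used for centring, and 2609 and 1953 with values raised to each array's background.

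**Figure D2:**
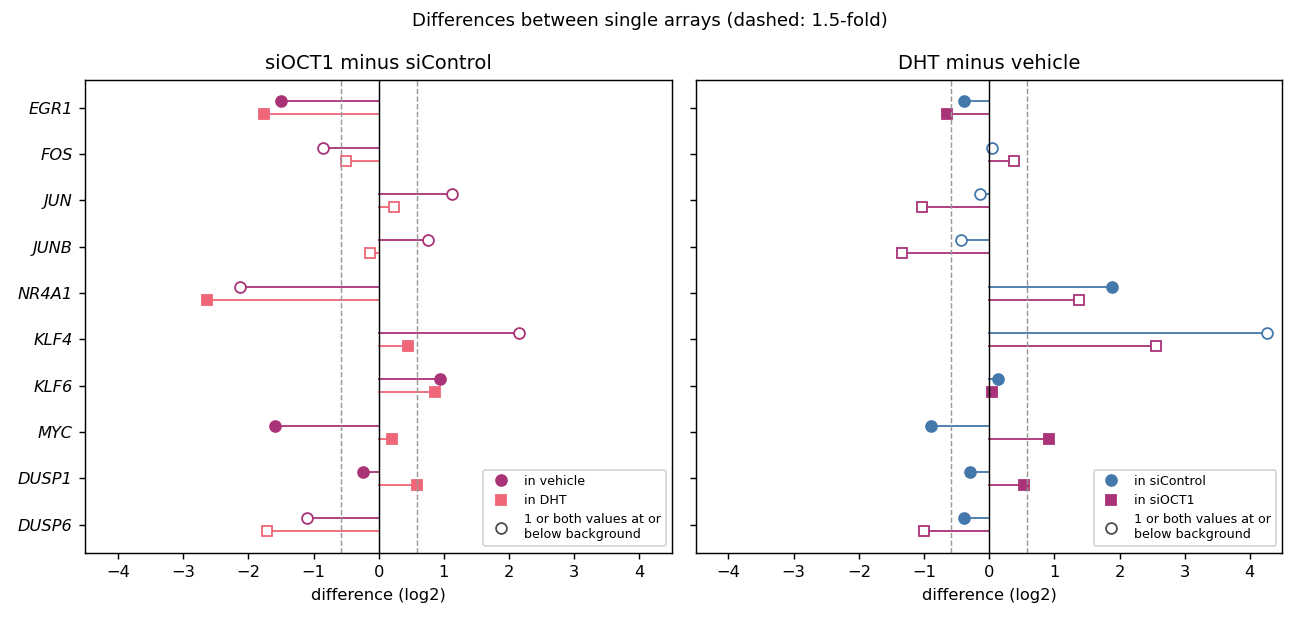
Log2 difference between single arrays (horizontal axis) for each member (vertical axis), siOCT1 minus siControl on the left and DHT minus vehicle on the right, with dashed lines at 1.5-fold. Filled symbols have both values above background; among these EGR1 lies at -1.49 and -1.76 on the left, and MYC at -0.89 and 0.91 on the right, on opposite sides of 0.

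With DHT, NR4A1 and KLF4 were higher under both siRNAs, the 2 members past 1.5-fold in the same direction in both pairs by deposited values. For NR4A1 this call ends in siOCT1 when values below background are raised to it, where the difference is 0.42. NR4A1 was higher with DHT by 1.89 in siControl, 3.71-fold, and at least 1.33-fold in siOCT1, where the vehicle value lay below background. The siOCT1 value in DHT, 7.81, stayed under the siControl value in vehicle, 8.55. For KLF4 the DHT value was higher under siControl by at least 2.84-fold, and under siOCT1 by at least 2.28-fold. These bounds are set by the backgrounds of the vehicle arrays, and both DHT values lay above both vehicle values. Of all measured genes 4.86% were higher with DHT under both siRNAs and 4.37% lower, the latter with no measured member. KLF4 counted as measured only through the DHT arrays, on which it is higher, so the filter favoured its count here.

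EGR1 had DHT differences of -0.39 in siControl and -0.65 in siOCT1. That of DUSP6 was -0.38 in siControl, and both siOCT1 values lay below background. KLF6 differed by 0.14 and 0.05, the smallest DHT differences of the members above background on every array. In siControl 2 members were higher (NR4A1 and KLF4) and 1 lower (MYC) by at least 1.5-fold, where 15.8% of measured genes were higher and 12.8% lower. In siOCT1 cells 3 were higher (NR4A1, KLF4 and MYC) and 3 lower (EGR1, JUNB and DUSP6), against 14.1% and 11.8%, and JUNB and DUSP6 lay below background on both arrays there. Medians over measured members were -0.34 in siControl and 0.29 in siOCT1, against -0.03 and 0.02 over measured genes. With values raised to the highest background, the median in siControl was 0. Of all measured genes 1396 were higher and 1129 lower with DHT in siControl, which became 1925 and 745 when positive controls were used for centring.

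The DHT difference of MYC had opposite signs under the siRNAs, at -0.89 in siControl and 0.91 in siOCT1, 1.85-fold lower and 1.88-fold higher. Both passed the size rule in opposite directions, as did 124 of the measured genes, or 1.4%. Subtracting the siControl response from the siOCT1 response gave 1.80 for MYC, and 0.69% of measured genes had a higher value. For DUSP1, at -0.29 and 0.54, the change was 0.83. For JUNB, KLF4 and DUSP6 the value was past 1.5-fold to the negative side, each with values below background on at least 2 arrays. In all 2 members lay past the rule on the positive and 3 on the negative side, against 17.5% and 18.0% of measured genes. Over all measured genes these were 1544 and 1591, which became 915 and 2341 when positive controls were used for centring. This change was not tested, and it rests on all 4 arrays at once.

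Listed MYC target genes, mostly of ribosome biogenesis and nucleotide synthesis, had low values on the same array as MYC. The list also holds CDK4, TFRC, EIF4E and EIF4EBP1, which are not genes of those processes. Of these CDK4, TFRC and EIF4EBP1 are among the lower genes in vehicle. Of 15 measured genes of this list, 11 were lower with siOCT1 in vehicle by at least 1.5-fold and 0 higher, with a median of -1.15, where 28.7% of measured genes were lower and 22.9% higher, with a median of -0.06. In DHT 6 were lower and 1 higher, with a median of -0.50, against 26.0% and 18.9% of measured genes. With DHT 9 were higher and 0 lower in siOCT1, median 0.66, against 14.1% and 11.8%, and 1 was higher and 4 lower in siControl, median -0.11, against 15.8% and 12.8%. These shares of measured genes are also the background for the counts of the lists that follow. For siOCT1 in both ligand states the shares are 12.2% higher and 18.7% lower. For DHT under both siRNAs they are 4.86% higher and 4.37% lower. The lowest of a gene's 4 values was on the siOCT1 vehicle array for 12 of the 15 genes, 80% against 30.4% of measured genes. The vehicle difference and the DHT difference in siOCT1 share that array, so a low reading there enters both. NOP16, a nucleolar protein, read 12.11 and 11.68 with siControl and 9.24 and 10.88 with siOCT1, vehicle and DHT in turn. EIF4EBP1, a translation repressor, read 11.21 and 10.49 with siControl and 8.90 and 9.86 with siOCT1. RRS1, a ribosome assembly factor, read 7.97 and 8.51 with siControl and 6.10, below background, and 7.50 with siOCT1. In all 3 the siOCT1 vehicle array held the lowest value, as for MYC. NOP58, a small nucleolar ribonucleoprotein subunit, was the 1 list gene higher with DHT under both siRNAs, by 1.22 and 0.72.

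For the partners and antagonists of MYC the counts by deposited values were mixed. Of 9 measured genes 2 were higher and 2 lower with siOCT1 in vehicle, and 4 higher and 1 lower in DHT, with medians of 0.09 and 0.50. The lower genes were MXD3 and FBXW7 in vehicle and MXD3 in DHT, both named after their values were seen. No lower call had both values above background. MXD3 lay below it on every array and counted as measured only through the siControl arrays, on which it is higher. MAX, the obligate dimer partner of MYC, was higher by 0.80 in vehicle and 0.96 in DHT, at 9.96 and 9.73 with siControl and 10.76 and 10.69 with siOCT1. MLXIP, a related glucose-sensing factor, was higher with siOCT1 by 0.60 in vehicle. With DHT its bound in siControl was at least 1.24-fold lower, and the difference in siOCT1 was -0.97.

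**Figure D3:**
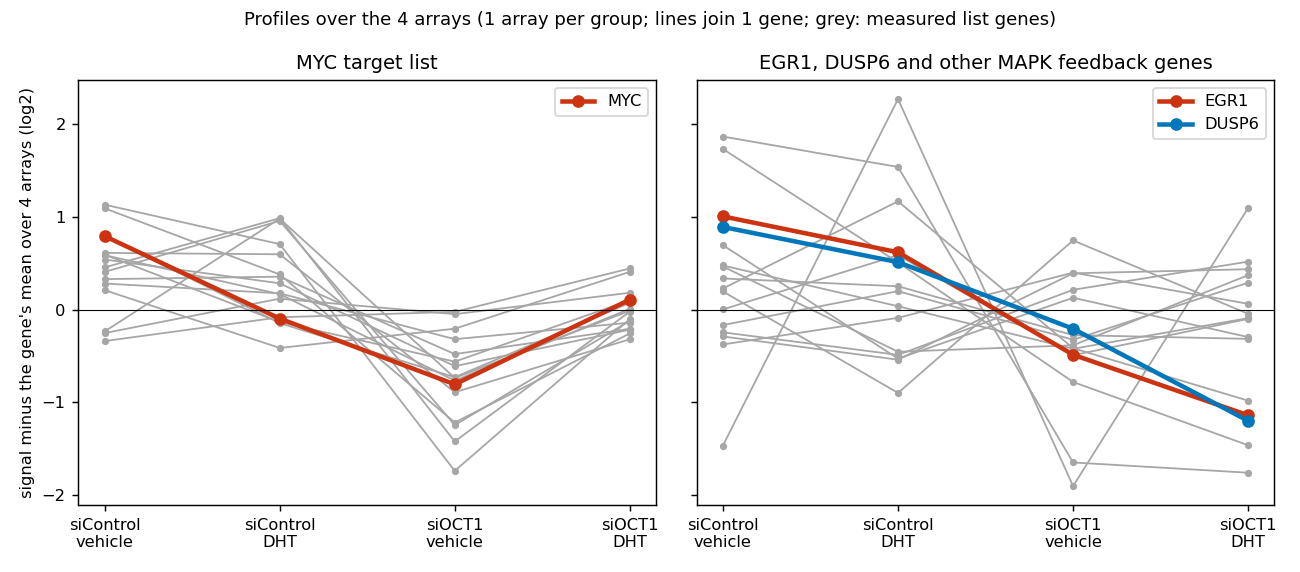
Signal minus the gene's own mean over the 4 arrays (log2, vertical axis) by array (horizontal axis), with grey lines for the measured genes of a list: the 15 MYC targets on the left with MYC in red, the 14 other MAPK feedback genes on the right with EGR1 in red and DUSP6 in blue. MYC and 12 of the 15 targets are lowest with siOCT1 and vehicle, while the feedback genes spread in both directions.

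Feedback genes of the MAPK pathway other than the members differed in both directions with siOCT1. Of 14 measured genes 2 were higher and 6 lower in vehicle, and 4 higher and 5 lower in DHT, with medians of -0.53 and -0.02. In vehicle DUSP3 alone of the higher genes and SPRED2 alone of the lower had both values above background. In DHT DUSP3 alone of the higher genes and SPRED1 and ERRFI1 of the lower had both above it. SPRED1 and SPRED2 are named after their values were seen. Each other call includes at least 1 value below background. Of these 14, 3 were lower in both states and 1 higher, where 18.7% of measured genes were lower and 12.2% higher in both. The 3 lower genes, ETV5, PHLDA1 and ETV4, counted as measured only through siControl arrays. Those are the arrays on which they are higher, so the filter favoured this count. ETV5, an ETS factor induced by ERK, read 7.69 and 7.36 with siControl and 4.17 and 4.06 with siOCT1, so it was at least 1.22-fold and 1.37-fold lower. PHLDA1 read 6.91 and 7.85 with siControl and 6.26 and 5.70 with siOCT1, at least 1.92-fold lower in DHT and with no bound above 1 in vehicle. ETV4, the close relative of ETV5, read 6.56 and 5.34 with siControl and 4.05 and 3.37 with siOCT1, all below background. ETV4 is the third gene lower in both states, named after its values were seen, and no fold is given for it. DUSP3, a small phosphatase of ERK and JNK, was higher with siOCT1 by 0.68 and 0.98 and lay above background on every array. With DHT, ERRFI1, an inhibitor of EGF receptor kinases, was higher by 3.74 in siControl and 3.0 in siOCT1, with DHT values of 17.64 and 16.47, beyond the 16-bit range. DUSP16, a phosphatase of JNK and p38, was at least 1.69-fold lower with DHT in siControl, and its difference in siOCT1 was -0.79.

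Upstream of these genes, EGFR, the epidermal growth factor receptor, had far lower signal with siOCT1. It read 10.39 and 9.50 with siControl and 7.04 and 7.44 with siOCT1, at least 7.98-fold lower in vehicle and with a difference of -2.05 in DHT. ERBB4, a receptor of neuregulins, went the other way, by 1.82 and 1.26. IGF1R, the insulin-like growth factor receptor, was higher with siOCT1 by 0.64 and 1.6, and higher with DHT by 1.13 in siControl and 2.09 in siOCT1. These 3 were the genes past 1.5-fold with siOCT1 in both states among 5 measured receptors and ligands, with list medians of -0.03 and -0.02. In both states 12.2% of all measured genes were higher and 18.7% lower. The ligands with a value, EREG, HBEGF, TGFA, BTC, EGF and NRG1, lay below background on every array.

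Within the cascade 17 genes were measured, of which 3 were higher and 6 lower with siOCT1 in vehicle, and 3 and 4 in DHT, with medians of 0.00 and -0.02. ELK1, the ETS partner of SRF that ERK phosphorylates, read 9.10 on both siControl arrays and 7.25 and 7.07 with siOCT1, at least 3.26-fold lower in vehicle and with a difference of -2.04 in DHT. RPS6KA1, an ERK-activated kinase, was at least 2.31-fold and 1.97-fold lower. PTPN11, the phosphatase SHP2 that couples receptors to RAS, had a difference of -1.13 in both states. SOS1, the exchange factor that loads RAS with GTP, was higher by 0.87 and 1.04. ELK4, another SRF partner and a known androgen-induced gene, was higher with DHT by 1.48 in siControl and 1.31 in siOCT1 and lay within 1.5-fold between the siRNAs.

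Of the other immediate early transcription factors 17 had a value and 6 were measured. With siOCT1 2 were higher and 1 lower in vehicle, and 1 higher and 2 lower in DHT, with medians of -0.17 and -0.03. SRF read 7.54 and 7.22 with siControl and 5.90 and 5.83 with siOCT1, at least 1.11-fold and 1.24-fold lower. By deposited values it was the 1 gene of the list past 1.5-fold in both states. Both siOCT1 values of SRF lay below background. SRF counted as measured only through the siControl arrays, on which it is higher, so the filter favoured this call. KLF10, a TGF-beta inducible factor, had DHT differences of -0.78 in siControl and -1.21 in siOCT1. FOSB, FOSL1, FOSL2, EGR3, EGR4, NR4A2 and NR4A3, all relatives of members, lay below background on every array, while JUND, the remaining JUN protein, lay above it on all 4.

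The other immediate early response genes differed in both directions with siOCT1. Of 13 measured genes 5 were higher and 2 lower in vehicle, and 6 higher and 1 lower in DHT, with medians of 0.24 and 0.57. Over all measured genes 22.9% were higher and 28.7% lower in vehicle, and 18.9% and 26.0% in DHT. The 1 gene lower in DHT was SGK1, a serum-inducible kinase, named after its values were seen, which read 3.45 and 8.90 with siControl and 4.08 and 4.44 with siOCT1. It lay above background with siControl and DHT only, so its count among the 5 higher genes in vehicle has no reading. SGK1 counted as measured only through that same array, so the filter favoured its count as lower in DHT. IER5, named after its values were seen, is counted as higher in both states. It read 5.80 and 5.45 with siControl and 7.47 and 6.73 with siOCT1. IER5 counted as measured only through the siOCT1 arrays, and both its DHT values lay below background. RHOB, a small GTPase induced by growth factors and stress, read 8.96 and 8.99 with siControl and 11.09 and 10.93 with siOCT1, higher by 2.13 and 1.93. ZFP36L1, which destabilises AU-rich messages, read 9.74 and 9.62 with siControl and 11.50 and 10.57 with siOCT1, higher by 1.76 and 0.95. For both genes each siOCT1 value lay above each siControl value, a separation not counted over all genes. With DHT TRIB1, a pseudokinase that acts on MEK and C/EBP factors, had differences of -3.36 and -2.69, the 1 measured gene of this list past the rule under both siRNAs. So EGR1 and NR4A1 on one side and KLF6, RHOB and ZFP36L1 on the other differed in opposite directions between the same arrays.

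**Figure D4:**
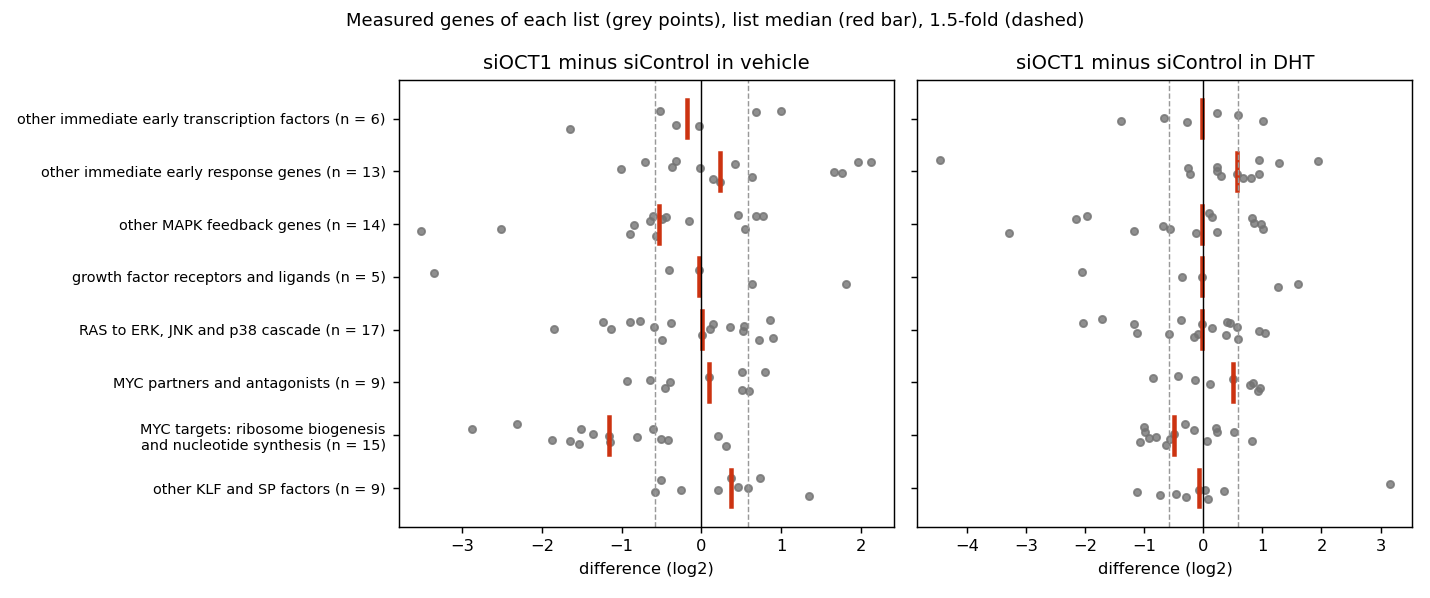
Difference of siOCT1 and siControl (log2, horizontal axis) in vehicle (left) and DHT (right) for the measured genes of each list (vertical axis, n genes), with list medians in red and 1.5-fold dashed. The MYC target list has medians of -1.15 and -0.50, with some of its genes above 0 in each panel. The other lists spread to both sides of 0 too.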

How the data were processed

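Per the labels' protocols, RNA of each of the 4 cultures went to 1 Affymetrix whole-transcript array. Per the submitters' processing notes, Expression Console (Affymetrix) and RMA made the log2 values deposited by the authors; versions and genome build are not given in the sources used here. Since RMA gives arrays a common distribution, a shift of total RNA is hidden. The logarithm's base was inferred from the values' range. Of 24351 probe sets 17709 had 1 gene symbol, 0 several, giving 17687 genes; of several probe sets of a gene the brightest on average was kept. Fewer cells of a type and less RNA per cell cannot be told apart.

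Array pairs were compared with a size rule of 1.5-fold (0.58), with no test, since each group holds 1 array. Of the negative control probe sets 56.0% passed this rule for siOCT1 in vehicle and 56.9% in DHT. For DHT they were 48.5% in siControl and 56.2% in siOCT1, so the rule has little meaning for signals near background. Named genes are the members and, from 8 pathway lists, up to 3 genes per direction and contrast past the rule in both pairs, by mean difference, with the brighter values above background. Members and lists were chosen with earlier results of these data known. The counting was tested on simulated data. Alternatives were a 2-fold rule, 3 other dim-gene filters, averaged probe sets, loess centring, centring on 2197 positive control probe sets, 32 added before the logarithm, and values raised to background. Some listed genes were not analysed here. Versions were numpy 2.4.6, statsmodels 0.14.6, pandas 2.3.3 and Python 3.11.15.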

Additional observations from a re-analysis of the deposited data

Results flagged for a closer look

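MYC was singled out because its DHT differences went opposite ways under the 2 siRNAs, -0.89 in siControl and 0.91 in siOCT1, a change of 1.80 on the log2 scale. DUSP1 was singled out for the same reason, at -0.29 and 0.54, a change of 0.83, with neither difference past 1.5-fold. Neither change was tested, with 1 array a group. Of the measured genes 39.5% had DHT differences of opposite sign, so a change of sign alone is common in these arrays. The differences of MYC ranged from -0.89 to -0.74 in siControl and from 0.85 to 0.91 in siOCT1 over the alternatives.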

How the results depend on the processing

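Counts of members past 1.5-fold mostly fell when dim values were left out or raised to background. Leaving out genes not above background on all 4 arrays cut the measured members from 8 to 4, so those counts have a smaller base. Of the 6458 genes then counted, 1471 were higher and 1637 lower with siOCT1 in vehicle, and 1177 and 1480 in DHT. With only genes above background on all 4 arrays counted, the members past the rule were 3 in place of 7 for siOCT1 in vehicle, 3 in place of 5 in DHT, 2 in place of 4 in both states, 1 in place of 3 for DHT in siControl, 2 in place of 6 in siOCT1, 0 in place of 2 under both siRNAs and 2 in place of 5 for the altered DHT response. The median of siOCT1 in DHT was then 0.39. Raised to the highest background they were 4 for siOCT1 in vehicle, 2 for DHT in siOCT1, 1 under both siRNAs and 3 for the change of response, with medians of -0.12 for siOCT1 in vehicle and 0 for DHT in siControl. Raised to each array's own background they were 3 for DHT in siOCT1 and 1 under both siRNAs, with a median of -0.12 for siOCT1 in vehicle. There siOCT1 in vehicle turned sign for FOS, to 0.77, the difference of the 2 backgrounds, and for DUSP6, to 0.0042, the siOCT1 background minus the siControl signal. A 2-fold rule left 3 members for siOCT1 in DHT, 3 for DHT in siOCT1 and 2 for the change of response. A filter on the mean gave a median of -1.10 for siOCT1 in vehicle. Among the other alternatives the median of DHT in siOCT1 reached 0.54 and that of siOCT1 in DHT 0.20 with a filter on the mean, and that of DHT in siControl -0.08 with values raised to own background; a 2-fold rule left 5 members for siOCT1 in vehicle. EGR1 with siOCT1 ranged from -1.49 to -1.28 in vehicle and from -1.76 to -1.44 in DHT, KLF6 from 0.87 to 1.16 and 0.79 to 0.93, and NR4A1 from -2.12 to -1.16 and -2.63 to -2.47. DUSP1 in DHT ranged from 0.52 to 0.66, on both sides of 0.58. Centring on positive controls turned the balance over all measured genes for siOCT1 in vehicle to 2774 higher and 1937 lower, and moved the median from -0.06 to 0.16; for DHT in siControl the median went from -0.03 to 0.13. With values raised to each array's background, the altered DHT response had 1059 positive and 2341 negative genes. The labels give no replicate numbers, so no replicate block was fitted; an additive fit over the 4 arrays, which leaves 1 residual degree of freedom, was not run.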

Other observations

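Krüppel-like and SP factors outside the members differed from gene to gene. Of 9 measured genes 3 were higher and 0 lower with siOCT1 in vehicle, and 1 higher and 2 lower in DHT, with medians of 0.37 and -0.08. KLF7 read 12.78 with siControl and vehicle, 10.72 with siControl and DHT, 14.14 with siOCT1 and vehicle and 13.88 with siOCT1 and DHT. It was thus higher with siOCT1 by 1.35 and 3.16, and the DHT difference was -2.06 in siControl and -0.26 in siOCT1. KLF5, named after its values were seen, read 9.12 and 10.40 with siControl and 9.85 and 9.27 with siOCT1, so that its DHT difference was 1.28 in siControl and -0.58 in siOCT1. SP1, also named after its values were seen, differed by -0.50 and -0.46 between the siRNAs, within 1.5-fold. None of these differences has a replicate check.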
